A study of Saccharomyces cerevisiae YPS1009 with 8 samples.

Results

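The genes described here are those of the long arm of yeast chromosome XII that lie beyond the ribosomal DNA, toward the right telomere. They were taken by systematic name, from YLR163 to YLR466, with at least 20 reads summed over all 8 ribosome profiling libraries of the wild strain YPS1009. Of 326 rows in that range, 44 carried 1 of 39 gene numbers set aside by the rule and 32 held fewer than 20 reads, which left 250 of the 6536 genes listed. The R64 gene table of the S288C reference held 232 of them, and all 232 lay on chromosome XII beyond its last ribosomal RNA gene. The read total was the only measured value used to choose them. The genes just inside this limit were YLR437C-A with 21 reads, YLR379W-A with 23, and CDA2 and YLR434C with 25 each, and the genes just below it were YLR184W with 19 and YLR415C with 18.

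All strains were haploid, of mating type MATa and carried ho-Δ1. In the euploid, a NatMX cassette sat in an intergenic region of chromosome XII between BER1 and INA1, which is inside the arm described here. YPS1009_Chr12, called Chr12 below, carried his3-Δ and 2 copies of chromosome XII, with His3MX6 and NatMX at that same site. Cultures were started at an OD600 of 0.05 in rich medium (YPD) at 30 °C, and were harvested after 3 generations (log phase) or on day 4 (stationary phase). Each of the 4 groups had 2 libraries. Each strain was 1 isolate, and nothing in the labels says how the replicates of a group were related beyond their number, so p-values measure the spread between these libraries.

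Ribosome profiling sequences the short mRNA fragments that ribosomes protect from nuclease, and the number of fragments on a coding sequence reflects both how much of the mRNA is present and how densely it is occupied. These were not separated here. In yeast, an additional chromosome usually raises the mRNAs of its genes roughly with the copy number, and only a minority are buffered. The ribosomal DNA is a long tandem repeat, so that it divides chromosome XII into a part on the centromere side (proximal) and the part described here (distal), which holds genes of nearly every cellular role. As yeast leave exponential growth, ribosome production is shut down and storage, stress and respiratory genes are induced, and part of the culture becomes quiescent. A different share of cells in a state and a different level per cell cannot be told apart in such cultures. No spike-in was described, so every level below is relative to the rest of its own library.

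Reads were counted over the gene body, which is the coding sequence without 20 codons at each end. This gave counts for 229 of the 250 genes, and 214 of these passed edgeR's filter on low counts and were tested in 1 fit with the other genes, 5076 in all. The genes that passed it are therefore not the whole arm. Levels are given as CPM, the gene-body reads of a gene scaled to the size of its library. Libraries held between 211302 reads (euploid day 4 replicate 1) and 6215498 reads (euploid day 4 replicate 2). The number of distal genes with at least 50 gene-body reads ranged from 86 to 138 in log phase. At day 4 it was 16 and 178 in the euploid and 68 and 173 in Chr12, replicates 1 and 2, so single-gene ratios of the first day 4 pair rest on few reads.

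The distal genes held a larger share of ribosome footprints in Chr12 than in the euploid in every library. Their share of gene-body reads was 2.10% and 2.12% in euploid log phase and 3.38% and 3.42% in Chr12 log phase. At day 4 it was 2.35% and 2.01% in the euploid and 3.65% and 3.92% in Chr12. The groups did not overlap in either phase. Within replicate numbers the Chr12 share was 1.61-fold and 1.61-fold that of the euploid in log phase, and 1.55-fold and 1.95-fold at day 4. An exact permutation test of 2 libraries against 2 cannot go below p = 0.3333, so no test was made. When each nucleotide position was counted once if it held any read, which removes the weight of repeated reads, the ratios were 1.47, 1.47, 1.55 and 1.45.

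**Figure D1:**
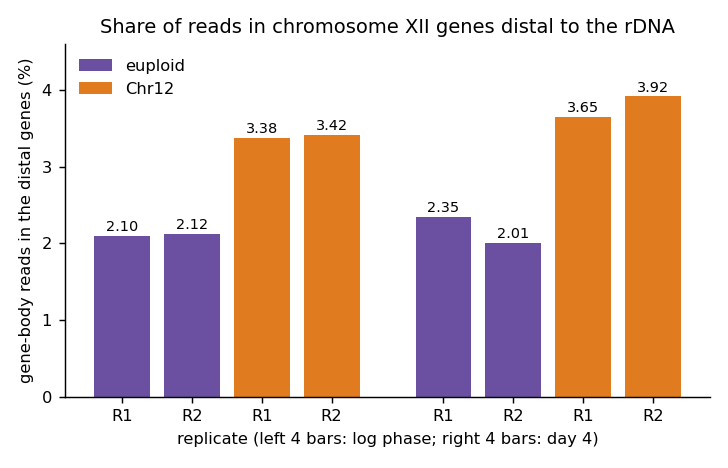
Share of gene-body reads that fell in the chromosome XII genes distal to the rDNA, in percent, in each of the 8 libraries (bars; purple, euploid; orange, Chr12; R1 and R2 are the replicate numbers). The 4 Chr12 libraries lie between 3.38% and 3.92%, above the 4 euploid libraries, which lie between 2.01% and 2.35%.

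Gene by gene, the difference was a broad shift of the whole arm. Over the 214 tested genes the median log2 fold change of Chr12 over euploid was 0.70 in log phase (1.63-fold, quartiles 0.38 and 0.98) and 0.70 at day 4 (1.62-fold, quartiles 0.11 and 1.19). Over all 5076 genes tested the medians were 0.01 and -0.05. The genes of the other chromosomes had medians of -0.02 and -0.10, so the distal genes stood above them by 0.72 in log phase (1.65-fold) and by 0.80 at day 4 (1.74-fold). That excess was 0.74 and 0.70 within the log phase pairs and 0.61 and 0.89 within the day 4 pairs. The 180 tested genes proximal to the rDNA had medians of 0.76 in log phase and 0.88 at day 4. No test of distal against proximal genes was made.

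In log phase 195 of the 214 genes (91.1%) had a log2 fold change above 0, against 51.3% of all genes tested. At day 4 the number was 168 (78.5%), against 47.7% of all genes. Both Chr12 libraries lay above both euploid libraries for 128 distal genes in log phase (59.8%, all genes 16.2%) and for 100 at day 4 (46.7%, all genes 17.3%). Both lay below for 0 distal genes in log phase (all genes 14.4%) and for 4 at day 4 (all genes 15.4%). Compared within replicate numbers, 165 genes were higher in both log phase pairs (all genes 29.7%) and 129 in both day 4 pairs (all genes 28.5%). In all 4 pairs, 109 genes were higher (50.9%, all genes 10.6%) and 0 were lower (all genes 8.18%).

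For most genes the fitted fold lay under 2, in 165 of 214 cases in log phase and 139 at day 4. In log phase the fold was under 1 for 19 genes, from 1 to 1.5 for 65, from 1.5 to 2 for 81, from 2 to 3 for 42 and over 3 for 7. At day 4 the same classes held 46, 48, 45, 45 and 30 genes. The wider spread at day 4 was also seen off chromosome XII, where 2.86% of genes had a fold over 2 in log phase and 11.2% at day 4. The single-gene values are not precise: their median standard error was 0.56 in log phase and 0.58 at day 4 on the log2 scale. Each gene had 1 estimate of the spread over both phases, so the log phase errors also carry day 4 spread. They do not show which phase was noisier. In log phase 163 genes lay within 1 SE of a doubling and 89 within 1 SE of no change, and a gene can be in both counts. Genes were above 0 in both phases in 156 cases, in log phase only in 39, at day 4 only in 12, and in neither in 7.

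**Figure D2:**
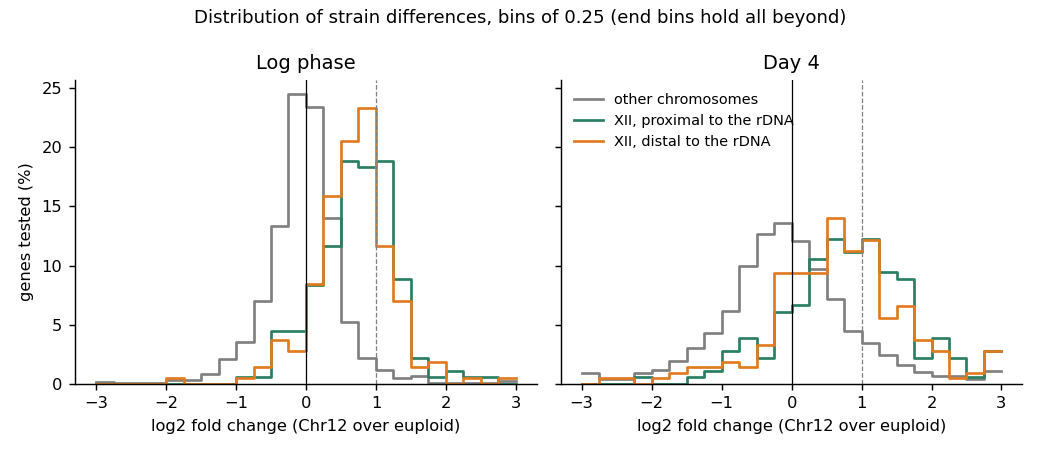
Distribution of log2 fold changes (Chr12 over euploid, x axis) in log phase (left) and at day 4 (right), as percent of the genes tested in each class (y axis), in bins of 0.25 on the log2 scale. The medians of the distal genes (orange) were 0.70 and 0.70, those of the proximal genes (green) 0.76 and 0.88, and those of the other chromosomes (grey) -0.02 and -0.10; the solid line marks no change and the dashed line a doubling.

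No single distal gene passed the test between the strains. At an FDR of 0.05 (edgeR's quasi-likelihood test, adjusted over all genes tested) 0 distal genes were called in log phase, when 0.0% of all genes were called. At day 4 the number was also 0, when 0.0985% of all genes were called. Both comparisons used the spread of each gene over both phases. At an unadjusted p under 0.05, 23 distal genes were higher and 0 lower in log phase (all genes, 1.16% and 0.827%), and 39 were higher and 0 lower at day 4 (5.61% and 3.23%). DESeq2 called 0 in log phase, when it called 0.0% of all genes higher. At day 4 it called 6 of the 151 distal genes to which it gave an adjusted p (CTS1, ELO3, PNP1, PUN1, SEC61 and CIS1), all higher in Chr12, against 1.60% of all such genes called higher. With the replicate number within each phase as a block, edgeR called 4 of 214 higher at day 4, namely ELO3, CIS1, PNP1 and CTR3 (all genes 0.788%). Without euploid day 4 replicate 2, edgeR called 1 of 220 at day 4, EST1, a telomerase subunit, and it was lower in Chr12 (all genes 0.368%). The day 4 calls were 4 of 202 with each position counted once (all genes 1.24%), 1 of 205 without the highest codon of each gene (all genes 0.410%) and 2 of 204 with the second tables of replicate 1 (all genes 0.709%), each higher in Chr12. The counts are small, and the shares for the highest codon and the second tables lie near those of all genes. PNP1 is a purine nucleoside phosphorylase. PNP1, PUN1 and EST1 were named after their values were seen.

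Split in 3 equal classes by total gene-body reads, the medians in log phase were 0.61, 0.72 and 0.77 from the least to the most read class, and at day 4 they were 0.67, 0.75 and 0.65. The numbers above 0 were 63 of 72, 66 of 71 and 66 of 71 in log phase and 46, 64 and 58 at day 4, and the classes were not tested against each other. Among the 129 genes with at least 20 reads in each log phase library, 116 were higher in both pairs and 3 were lower, and the log2 ratios of the 2 pairs correlated at r = 0.57 across genes. Among the 111 genes with at least 10 reads in each day 4 library, 56 were higher in both pairs and 6 were lower, with r = 0.11 between the pairs. Across all 214 genes the log phase and day 4 fold changes correlated at r = 0.20 (Spearman's rho = 0.28). These correlations are over genes, which share libraries and are not independent replicates. The order of genes at day 4 was barely shared between the replicate pairs, whereas the median was above 0 in each pair.

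The shift was present along the whole arm. In 9 blocks of neighbouring genes (25 each, 14 in the last), ordered from the rDNA to the telomere, the log phase medians were 0.73, 0.70, 0.52, 1.06, 0.68, 0.68, 0.79, 0.63 and 0.88. The day 4 medians were 0.84, 0.66, 0.73, 1.0, 0.44, 0.64, 0.58, 0.67 and 0.79. Every block was above 0 in both phases. Block 4, from RED1 to YLR297W, which includes GSP1, CTS1 and SEC22, had the highest median in both phases, and the lowest were those of block 3 in log phase and block 5 at day 4. The block medians were given no test, and the quartiles of neighbouring blocks overlapped.

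**Figure D3:**
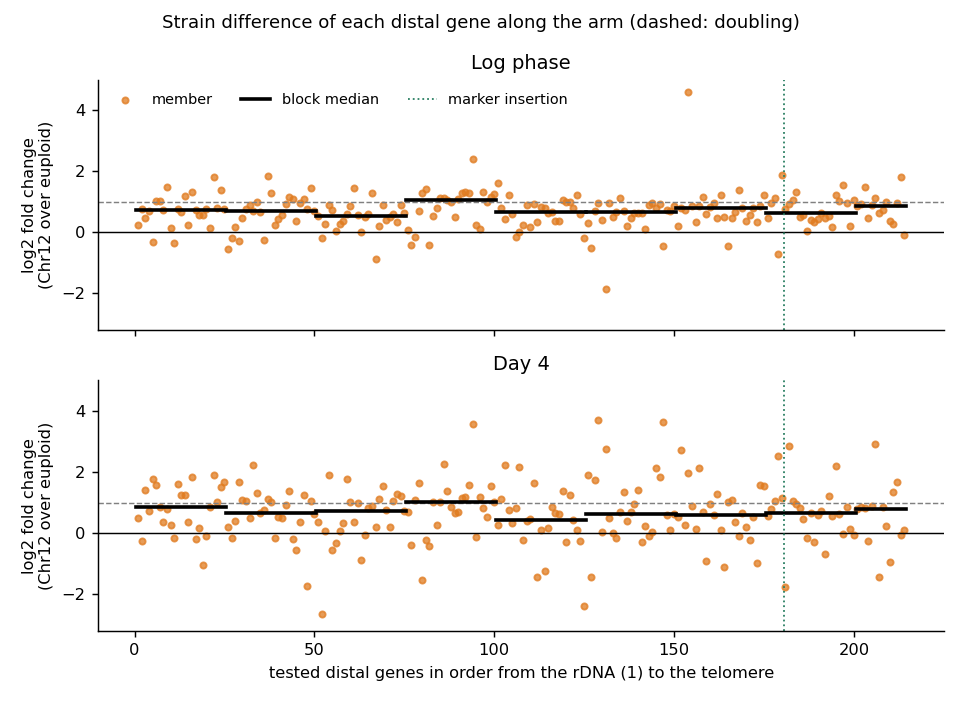
Log2 fold change (Chr12 over euploid, y axis) of the 214 tested distal genes (points) in order from the rDNA to the telomere (x axis), in log phase (top) and at day 4 (bottom). Black bars are medians of blocks of 25 genes, from 0.52 to 1.06 in log phase and from 0.44 to 1.0 at day 4; the dashed line marks a doubling and the dotted line the marker insertion between BER1 and INA1.

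BER1 and INA1 flank the resistance markers of both strains. BER1, named for benomyl resistance, had 10.4 and 7.81 CPM in euploid log phase and 30.2 and 38.3 in Chr12. Its day 4 levels were 10.9 and 3.21 in the euploid and 10.5 and 11.2 in Chr12. The log phase groups were well apart and the day 4 groups overlapped. Its log2 fold changes were 1.89 ± 0.70 (SE, n = 2 against 2) in log phase and 1.16 ± 0.84 at day 4, with edgeR adjusted p = 0.999 and 0.726. INA1, a predicted membrane protein, had 539 and 331 CPM in euploid log phase and 905 and 575 in Chr12. Its day 4 levels were 131 and 2.14 in the euploid and 31.6 and 6.39 in Chr12, so the replicates of each strain differed far more than the strains did. Its fitted values were 0.77 ± 1.31 in log phase and -1.76 ± 1.58 at day 4, and without euploid day 4 replicate 1 the latter became 2.80.

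At the far end of the arm lie subtelomeric genes with close copies elsewhere in the genome. YRF1-4, a helicase gene of the Y′ repeats, had 98.3 and 47.99 CPM in euploid log phase and 113 and 24.9 in Chr12. The day 4 levels were 208 and 32.1 in the euploid and 184 and 60.7 in Chr12. The strains overlapped in both phases (log2 fold changes -0.08 ± 0.99 and 0.11 ± 1.03). Reads of this gene can come from other Y′ copies, and how reads that match several places were assigned is not given in the sources used here. YLR460C had at most 19 reads in any library. YLR462W, YLR463C and YLR464W could not be counted over a gene body. YLR462W had 10 and 3 reads in euploid log phase and 10 and 4 in Chr12, and the others had at most 24 in any library.

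Grouped by role, 16 lists covered 166 of the distal genes, of which 159 were tested. All 16 medians were above 0 in both phases, and no list held a gene past the FDR between the strains. Over all 214 tested distal genes, 91.1% were above 0 in log phase and 78.5% at day 4, and 50.9% were higher in all 4 pairs. The counts within a list below stand beside these shares of the arm. The medians in log phase ran from 0.35 (DNA replication, repair and telomeres) to 1.31 (chaperones and folding, 3 genes). The differences between lists were not tested, since the lists were written with earlier results of these data known.

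**Figure D4:**
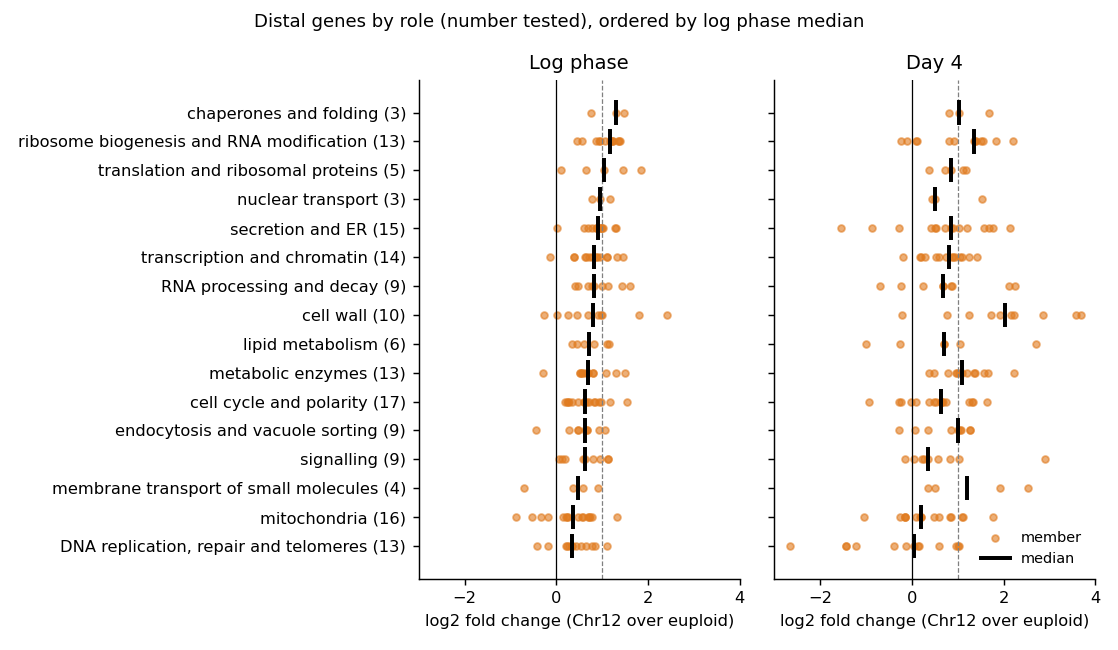
Log2 fold change (Chr12 over euploid, x axis) of the distal genes in 16 lists by role (rows, with the number of genes tested) in log phase (left) and at day 4 (right). Points are genes and black bars list medians, which ran from 0.35 to 1.31 in log phase and from 0.05 to 2.04 at day 4; the dashed line marks a doubling.

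The genes for making ribosomes stood high in both phases. Of the 13 tested, all 13 were above 0 in log phase (median 1.16, 2.24-fold) and 11 at day 4 (median 1.36, 2.57-fold), and 9 were higher in all 4 pairs. PWP1, needed for large subunit assembly, had 366 and 517 CPM in euploid log phase and 898 and 1427 in Chr12. By day 4 these levels were 49.2 and 38.1 in the euploid and 118 and 124 in Chr12. The strains did not overlap in either phase, with log2 fold changes of 1.40 ± 0.47 and 1.51 ± 0.50 (edgeR adjusted p = 0.999 and 0.449). UTP13, of the complex that cuts out the small subunit RNA, was at 1.16 ± 0.45 and 1.38 ± 0.48. AFG2, an ATPase that releases factors from large subunit precursors, was at 1.38 ± 0.62 in log phase and -0.11 ± 0.65 at day 4. Its day 4 pairs had opposite signs. PWP1 and AFG2 were chosen for high log phase ratios by the rule given below for MAP1. Their log phase values are therefore a description.

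Among genes of translation, MAP1, a methionine aminopeptidase, was among the 6 genes chosen for the highest log phase ratios, ranked by the lower of both pair ratios among genes with at least 20 reads in each log phase library. It had 229 and 235 CPM in the euploid and 567 and 704 in Chr12. The others were CTS1, NCW2, PWP1, FPR4 and AFG2. Chosen for those values, the log phase ratios of all 6 are a description. At day 4 MAP1 had 104 and 69.4 in the euploid and 105 and 114 in Chr12, a log2 fold change of 0.38 ± 0.44. DPH5, an enzyme of diphthamide synthesis on elongation factor 2, was at 1.04 ± 0.50 and 0.84 ± 0.51. TMA7, a short ribosome-associated protein, was at 0.64 ± 0.46 and 0.73 ± 0.49. RPL31B and RPL6B, ribosomal protein genes with introns, could not be counted over a gene body. Summed over their whole rows and scaled to the library, RPL31B was 1.46-fold and 1.76-fold higher in the log phase pairs of Chr12 and 3.07-fold and 3.53-fold at day 4. RPL6B was 1.43-fold and 1.60-fold, then 1.69-fold and 2.56-fold. Both have close copies on other chromosomes, so part of these reads may belong to the copies.

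Of the 15 secretory genes, all 15 were above 0 in log phase (median 0.91) and 12 at day 4 (median 0.86). The day 4 count is near the share of the whole arm (78.5%). In all 4 pairs, 12 of 15 were higher (whole arm 50.9%). SEC61, the channel of the endoplasmic reticulum, had 567 and 700 CPM in euploid log phase and 876 and 1419 in Chr12. The day 4 levels were 43.8 and 97.1 in the euploid and 361 and 288 in Chr12. The groups did not overlap in either phase, and the difference was 0.86 ± 0.53 in log phase and 2.14 ± 0.56 at day 4 (edgeR adjusted p = 0.348). SEC13, of the COPII coat, was at 0.89 ± 0.50 and 0.50 ± 0.50. SEC22, a vesicle fusion protein, was at 1.30 ± 0.69 in log phase and -1.55 ± 0.91 at day 4. Its day 4 reads were 1 and 63 in the euploid and 3 and 4 in Chr12, and its day 4 pairs had opposite signs (0.17 and -2.51).

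The cell wall genes had the highest day 4 median of the 16 lists. Of the 10 tested, 9 were above 0 in log phase (median 0.81, 1.76-fold) and 9 at day 4 (median 2.04, 4.11-fold), and 6 were higher in all 4 pairs. That day 4 median lies between the values of NCW2 (1.91 ± 0.65) and CDA1 (2.17 ± 3.26). CDA1 held 0 reads in replicate 2 of either strain at day 4 and at most 8 in replicate 1. The highest day 4 value of the list was that of GAS2 (3.69 ± 1.44), with at most 16 reads in any day 4 library. The median therefore rests in part on a gene with few reads. CTS1, the chitinase that separates daughter from mother, had 29.6 and 30.1 CPM in euploid log phase and 160.1 and 157 in Chr12. The levels at day 4 were 21.9 and 3.00 in the euploid and 36.9 and 116 in Chr12. Among genes with at least 20 reads in each log phase library, CTS1 had the highest value of the lower pair ratio, 2.42 and 2.36 on the log2 scale within the pairs, and was chosen for it. At day 4, which was not used to choose it, its log2 fold change was 3.58 ± 0.995 (edgeR adjusted p = 0.384), with 0.63 in the first pair and 5.23 in the second. Its day 4 reads were 4 and 14 in the euploid and 14 and 218 in Chr12.

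NCW2, a protein anchored in the wall, had 105 and 72.5 CPM in euploid log phase and 382 and 243 in Chr12. It was also chosen for its log phase ratios, which are therefore a description. Its levels at day 4 were 27.4 and 9.43 in the euploid and 42.1 and 64.4 in Chr12, again without overlap (1.91 ± 0.65, edgeR adjusted p = 0.449). FKS1, a subunit of the enzyme that makes the main glucan of the wall, had 1420.3 and 1099 CPM in euploid log phase and 2225 and 1878 in Chr12. Day 4 cultures had 268 and 107 in the euploid and 537 and 679 in Chr12. Its log2 fold changes were 0.70 ± 0.55 and 1.73 ± 0.57 (edgeR adjusted p = 0.999 and 0.449). EXG1, a secreted glucanase, was at 0.45 ± 0.82 and 2.22 ± 0.86.

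The metabolic genes showed all 13 above 0 at day 4 (median 1.10, 2.15-fold) and 12 in log phase (median 0.69, 1.61-fold), and 10 were higher in all 4 pairs. IDP2, the cytosolic NADP-dependent isocitrate dehydrogenase, had 6.39 and 7.81 CPM in euploid log phase and 22.97 and 17.2 in Chr12. By day 4 the levels were 378 and 1278 in the euploid and 1219 and 1669 in Chr12. The log phase groups did not overlap and the day 4 groups did (1.5 ± 0.70 and 0.79 ± 0.61). IMD3, an IMP dehydrogenase of guanine nucleotide synthesis, was at 0.53 ± 0.54 and 1.20 ± 0.56. In lipid metabolism (6 genes, medians 0.71 and 0.70) the elongase ELO3, which makes the long acyl chains of sphingolipids, had 280 and 211 CPM in euploid log phase and 495 and 368 in Chr12. Its day 4 levels were 10.9 and 7.29 in the euploid and 34.2 and 70.3 in Chr12, a log2 fold change of 2.72 ± 0.61 (edgeR adjusted p = 0.230).

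The lowest medians in both phases were those of mitochondrial genes and of genes of DNA replication, repair and telomeres. Of 16 mitochondrial genes, 12 were above 0 in log phase (median 0.37, 1.29-fold) and 11 at day 4 (median 0.19, 1.14-fold), and 4 were higher in all 4 pairs. MAS1, a subunit of the protease that removes import signals, had differences of 0.23 ± 0.42 and 0.48 ± 0.42. Of 13 genes of DNA replication, repair and telomeres, 11 were above 0 in log phase (median 0.35, 1.28-fold). At day 4 the number was 7 (median 0.05, 1.04-fold), and 3 were higher in all 4 pairs. That day 4 median is the value of TOP3, whose pairs were at -0.66 and 1.04. EST1, EST2, MMS22 and NEJ1 were likewise below 0 in the first day 4 pair and above 0 in the second. PSY3 went the other way (0.10 and -2.59). MCM5, of the replicative helicase, was at 1.11 ± 0.50 and 1.03 ± 0.52, whereas SIR3, which silences telomeric genes, was at 0.20 ± 0.63 and 0.13 ± 0.64.

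In the remaining lists the medians were 0.83 and 0.81 for transcription and chromatin (14 genes), 0.82 and 0.67 for RNA processing and decay (9), 0.63 and 1.0 for endocytosis and vacuole sorting (9), and 0.63 and 0.64 for cell cycle and polarity (17), log phase first. Signalling (9) was at 0.62 and 0.34, membrane transport (4) at 0.47 and 1.20, nuclear transport (3) at 0.96 and 0.51, and chaperones (3) at 1.31 and 1.03. GSP1, the Ran GTPase that drives nuclear transport, had the highest mean footprint density among the genes counted over a gene body, 2478 CPM per kilobase. It had 1750 and 1134 CPM in euploid log phase and 3537 and 2969 in Chr12. At day 4 the levels were 109 and 225 in the euploid and 316 and 666 in Chr12. The strains were apart in both phases (1.17 ± 0.58 and 1.53 ± 0.59, edgeR adjusted p = 0.999 and 0.517). Its day 4 values are a description, since GSP1 was also chosen for high day 4 ratios. GSP1 has a near-identical paralog on another chromosome, which may share its reads.

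Several other genes, each among the 2 most read of its list, were higher in every pair. VMA6, of the vacuolar proton pump, was at 0.93 ± 0.63 and 0.86 ± 0.63. KAP95, the import receptor, was at 0.96 ± 0.47 and 0.51 ± 0.47, and IKI3, of the Elongator complex, was at 0.95 ± 0.41 and 0.58 ± 0.42. VIP1, an inositol pyrophosphate kinase, was at 1.12 ± 0.56 and 1.04 ± 0.56. CPR6, a cyclophilin that works with Hsp90, was at 1.31 ± 0.53 and 1.03 ± 0.54. The prolyl isomerase FPR4 was at 1.48 ± 0.68 and 0.81 ± 0.68. Its log phase value was 0.56 without Chr12 log phase replicate 2 and 2.17 without euploid log phase replicate 2. FPR4 was also chosen for its log phase ratios, which are therefore a description. The septin CDC3 was at 0.94 ± 0.53 and 1.65 ± 0.58.

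CRN1, the actin-binding protein coronin, was at 0.63 ± 0.52 and 0.73 ± 0.55, with -0.22 in the first day 4 pair. HAP1, the heme-responsive activator, was at 0.40 ± 0.53 and 0.74 ± 0.52, and RCK2, a kinase downstream of Hog1, at 0.59 ± 0.75 and 0.82 ± 0.75, both above 0 in all 4 pairs. CCC1, the vacuolar iron transporter, was at 0.57 ± 0.45 and 0.49 ± 0.44, and ENT2, an endocytic epsin, at 0.47 ± 0.91 and 1.08 ± 0.92. Both were also above 0 in all 4 pairs. SEN1, a helicase that ends transcription, was at 0.48 ± 0.64 in log phase and -0.70 ± 0.65 at day 4.

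Some genes were lower in Chr12 in both replicate pairs. In log phase 8 genes were lower in both pairs (3.74%, all genes 28.6%), as were 8 at day 4 (3.74%, all genes 28.3%). Of the log phase genes, only UPS2, COQ9 and CTR3 had at least 20 reads in each library. CTR3, a copper transporter of the plasma membrane, had 250.2 and 98.2 CPM in the euploid and 163 and 51.7 in Chr12. COQ9, needed to make coenzyme Q, had 43.2 and 340 in the euploid and 37.3 and 227 in Chr12. UPS2, which carries phospholipid between the mitochondrial membranes, had 35.97 and 47.99 in the euploid and 26.6 and 40.2 in Chr12. The groups overlapped for all 3, and the replicates of COQ9 differed more than the strains did. These genes, with HMX1, MSS51 and GUF1, were chosen for their low log phase ratios, which are therefore a description.

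At day 4 those genes were mostly not low. CTR3 had 38.3 and 281 CPM in the euploid and 534 and 1401 in Chr12 (2.54 ± 1.0, edgeR adjusted p = 0.519). UPS2 had 10.9 and 10.3 in the euploid and 31.6 and 39.4 in Chr12 (1.77 ± 0.53, edgeR adjusted p = 0.413). HMX1, the heme oxygenase, had 99.1 and 52.5 in euploid log phase and 67.5 and 57.5 in Chr12, and at day 4 71.1 and 180.4 in the euploid and 353 and 469 in Chr12. The day 4 groups were apart for these 3 genes and the log phase groups overlapped. HMX1 was also chosen for high day 4 ratios, so its day 4 values are a description too. GUF1, a GTPase of mitochondrial translation, was at 0.10 ± 0.50 and 1.18 ± 0.56. MSS51, which activates translation of a cytochrome oxidase subunit, was at -0.18 ± 0.46 and -0.15 ± 0.47, and COQ9 at -0.54 ± 1.07 and 0.20 ± 1.10.

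The difference between phases was tested as the interaction of strain and phase. It gave 0 distal genes past the FDR (0.0% of all genes), with a median of -0.02 over the arm and -0.05 over all genes. At an unadjusted p under 0.05, 6 distal genes were higher (CIS1, CTR3, UPS2, HMX1, ELO3 and PNP1; all genes 3.15%) and 2 were lower (DCS1 and SEC22; all genes 1.46%). DESeq2 called 1 of 96 distal genes with an adjusted p, CIS1, which is near the share of all genes it called higher (1.24%). CIS1 had 0.80 and 12.3 CPM in euploid log phase and 1.44 and 1.92 in Chr12, from 1 to 11 reads. Its day 4 levels were 60.2 and 44.1 in the euploid and 318 and 371 in Chr12, a log2 fold change of 2.77 ± 0.78. Among genes with at least 10 reads in each day 4 library it had the highest value of the lower pair ratio, and was chosen for it. Its interaction value was 4.61 ± 1.32 (edgeR adjusted p = 0.801).

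Other genes chosen for high day 4 ratios were also apart in that phase, as the choice requires. HMX1 and GSP1, given above, were chosen in the same way. BOP2, of unknown function, had 613 and 742 CPM in the euploid and 1858 and 2347 in Chr12 at day 4. In log phase it had 7.99 and 7.81 in the euploid and 15.8 and 9.58 in Chr12, a log2 fold change of 0.69 ± 0.53. THI7, the thiamine transporter, had 120.4 and 64.3 in the euploid and 295 and 377 in Chr12 at day 4, and its log phase value was 0.91 ± 0.56. RSC2, of the RSC chromatin remodeller, had a log phase value of 0.63 ± 0.40. RSC2 overlaps the dubious frame YLR358C in R64, and 7 of the tested genes overlap another coding gene in that way.

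Genes chosen for low day 4 ratios had small differences with 1 exception. STE23, a protease that processes a-factor, had 175 and 91.5 CPM in the euploid and 50.01 and 67.6 in Chr12 (-1.12 ± 0.57, edgeR adjusted p = 0.605). In log phase it had 91.1 and 219.9 in the euploid and 203 and 236 in Chr12 (0.50 ± 0.55). STE23, VRP1, PEX13 and SEI1 were the 4 genes with both Chr12 libraries below both euploid libraries at day 4, and SEI1 had 1 read in its scarcest library. UCC1 is an F-box protein, HMG2 an HMG-CoA reductase, VRP1 an actin organiser and PEX13 a peroxisomal import protein. DCS1 acts in mRNA decay. The day 4 values of these 5 genes lay between -0.57 and -0.11. All 5 took the opposite sign under another way of counting or without 1 library. In log phase the same 5 genes were above 0, between 0.37 and 1.43, and DCS1 was the highest of them (1.43 ± 0.46).

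Entry into day 4 moved many distal genes in both strains, and to a similar count. In the euploid 64 of the 214 genes passed the FDR (36 rose and 28 fell), when 27.3% of all genes were called (15.8% up and 11.5% down). In Chr12 65 passed (36 rose and 29 fell), when 23.8% of all genes were called (14.3% up and 9.52% down). In both strains 29 genes rose (13.6%, all genes 11.5%) and 22 fell (10.3%, all genes 7.57%), and 0 had opposite calls. The shares lay near those over all genes. These counts depend on single libraries. Without euploid log phase replicate 1 or 2 the euploid count was 19 or 20, and without Chr12 log phase replicate 2 the Chr12 count was 6.

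**Figure D5:**
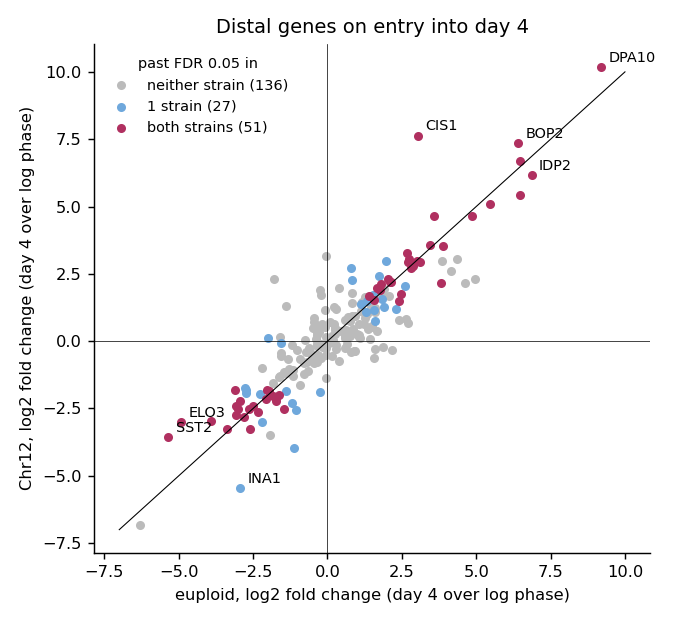
Log2 fold change from log phase to day 4 of the 214 tested distal genes in the euploid (x axis) and in Chr12 (y axis). Red points passed the FDR of 0.05 in both strains (51 genes), blue points in 1 strain (27) and grey points in neither (136); the diagonal line marks equal values.

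Among the genes with the largest rises, DPA10 had 0.80 and 0 CPM in euploid log phase and 0.72 and 0 in Chr12, which is 1 read in each first library. The day 4 levels of DPA10 were 43.8 and 576 in the euploid and 734 and 402 in Chr12. IDP2, given above, rose by 6.86 on the log2 scale in the euploid and by 6.16 in Chr12 (edgeR adjusted p = 0.002 and 0.003). BOP2 rose by 6.41 and 7.35 (edgeR adjusted p = 0.001 and 0.002). TFS1, an inhibitor of a vacuolar carboxypeptidase, rose by 6.49 and 6.69, and SHH4, a homolog of a succinate dehydrogenase subunit, by 6.48 and 5.45. YLR345W, similar to enzymes that make fructose-2,6-bisphosphate, rose by 5.47 and 5.08 and had 8.79 and 8.93 CPM in euploid log phase against 432 and 364 at day 4. Leaving out Chr12 log phase replicate 2 ended the Chr12 calls of DPA10, TFS1 and SHH4, and that of SHH4 was also lost without Chr12 day 4 replicate 2.

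The genes that fell most included several needed for ribosomes. PWP1 fell by 3.37 in the euploid and by 3.26 in Chr12 on the log2 scale (edgeR adjusted p = 0.004 and 0.005), and TSR2, which delivers a small subunit protein, fell by 3.93 and 2.95. RSA3, of large subunit assembly, fell by 2.80 and 2.81. In the whole list of ribosome genes 6 of 13 fell in the euploid and 8 of 13 in Chr12, and 0 rose in either strain. Of all genes tested, 11.5% fell and 15.8% rose in the euploid, and 9.52% fell and 14.3% rose in Chr12. The difference of the list from these shares was not tested. ELO3 fell by 4.91 in the euploid and by 3.01 in Chr12, and GSP1 fell by 3.08 and 2.73. SST2, which turns off pheromone signalling, fell by 5.35 and 3.56. SST2 had 1 read in euploid day 4 replicate 2, and its calls were lost when most single libraries were left out. The call in Chr12 was also lost for PWP1, TSR2, RSA3 and GSP1 without Chr12 log phase replicate 2, for TSR2 and GSP1 without either Chr12 day 4 library, and for GSP1 without Chr12 log phase replicate 1. In the euploid, the calls of TSR2 and RSA3 were lost without log phase replicate 2 and that of GSP1 without log phase replicate 1.

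By role the counts of entry calls were small, and for none of the lists below was a difference from the shares of all genes given above (15.8% up and 11.5% down in the euploid, 14.3% and 9.52% in Chr12) tested. Of the 13 metabolic genes, 3 rose and 3 fell in the euploid and 4 rose and 2 fell in Chr12. Of the 16 mitochondrial genes 2 rose and 1 fell in the euploid and 3 rose and 0 fell in Chr12. The 15 secretory genes gave 0 rises and 2 falls in the euploid and 1 rise and 3 falls in Chr12, and the 10 cell wall genes 0 rises and 2 falls in the euploid and 1 and 1 in Chr12. The 13 genes of DNA replication, repair and telomeres gave 0 calls in the euploid and 1 rise in Chr12. The log2 values for entry correlated between the 2 replicate numbers at r = 0.58 in the euploid and r = 0.82 in Chr12 across genes, above the values for the strain differences.

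The 36 genes outside the test add little. Of these, 15 were counted and too scarce, with 0 to 78 gene-body reads over all 8 libraries. The other 21 were not counted, 18 because the listed length was not whole codons or too short and 3 because of an uncovered stretch. Among them TAD3, a tRNA deaminase subunit, was 2.67-fold and 2.40-fold higher in the log phase pairs of Chr12 and 3.56-fold and 2.65-fold at day 4 over its whole row. PBA1, a proteasome assembly chaperone, was 2.12-fold, 1.45-fold, 1.61-fold and 1.35-fold higher in the same order. These were named after their values were seen. Of the 21 genes not counted, 5 had ratios above 1 in all 4 pairs (TAD3, PBA1, RPL31B, RPL6B and TDA5), 16 had ratios on both sides of 1 and 0 were below 1 in all 4, without a test.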

How the data were processed

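The authors trimmed reads (CutAdapt 3.5), removed reads with a poor first base or from noncoding RNA, mapped the rest to the YPS1009 genome (bowtie2 2.5.1), and deposited raw counts of read 5′ ends per position, with 72 nt of leader and 60 nt of trailer around every coding sequence. Removal of duplicates was not described. Replicate 1 libraries have a second table whose making is not stated; it served as an alternative. Groups came from the sample labels. Read starts were shifted by 12 nt to the P site and summed over the gene body. Of 6536 listed genes, 634 had no whole-codon or sufficient length, 56 had an uncovered stretch of 100 nt and 4 had no systematic name. Counts of 8 libraries were fitted as 4 group means in edgeR 4.0.16 (TMM, filterByExpr, quasi-likelihood; R 4.3.3), with Benjamini-Hochberg adjustment over 5076 genes; the script was tested on simulated data. CPM used the TMM-scaled library size. Ratios within a replicate number add 0.5 to each count. The standard error is the absolute log2 fold change, taken without the small count that edgeR adds for the printed value, divided by the root of F. Names, chromosome order and overlaps between genes came from R64, and none of its coordinates is printed. Named genes were the highest and lowest by ratio, density and entry, the 2 most read of each list, BER1 and INA1, and the last 5 of the arm. The genes and lists were chosen with earlier results of these data known. Alternatives were RLE and off-XII scaling, DESeq2 1.42.0, other filters, regions and read weights, the second tables, replicate blocks and leaving out each library. The fit gave each gene 1 estimate of the spread, taken over all 4 groups of 2 libraries. A standard error in 1 phase therefore also carries the spread of the other phase, and it covers these libraries only.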

Additional observations from a re-analysis of the deposited data

How the results depend on the processing

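In log phase 0 distal genes were called under every alternative run, and the median log2 fold change stayed above 0. It was 0.73 with RLE scaling, 0.78 with TMM on genes off chromosome XII, 0.73 under DESeq2, 0.73 over the whole coding sequence, 0.56 with each position counted once, 0.79 without the highest codon, 0.76 with the second tables, and from 0.65 to 0.74 without 1 library. The filter of 50 reads in every library left 5 distal genes, with medians of 0.46 in log phase and -0.0495 at day 4 and 2 entry calls in each strain. The ratio of read shares in log phase was 1.61 over the whole coding sequence and 1.47 with each position counted once. At day 4 the ratio of replicate 1, 1.55 as reported, was 1.60 over the whole coding sequence and 2.04 with the second tables. That of replicate 2, 1.95 as reported, was 1.88 over the whole coding sequence.

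At day 4 the median ranged from 0.50 to 1.03 without 1 library, the latter without euploid day 4 replicate 2. Distal calls at day 4, 0 as reported, were 6 under DESeq2, 4 with each position counted once (THI7, CTS1, FKS1 and ELO3), 1 without the highest codon (ELO3), 2 with the second tables (CIS1 and PUN1), each given above beside the share of all genes, and 0 to 1 without 1 library. The interaction gave 1 under DESeq2. Entry calls ranged from 19 to 80 in the euploid and from 6 to 81 in Chr12 without 1 library.

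The replicate number was tried as a block. Deviations from the group means correlated between same-numbered libraries of the 2 strains at 0.64 in log phase and 0.54 at day 4, but with 2 numbers the samples share only a number. An additive block gave 0 strain calls in both phases and 77 and 74 entry calls (euploid, Chr12), and a block within each phase gave 0 in log phase, 4 at day 4, and 93 and 92 on entry. The cause of these differences was not tested.

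Some single genes with small values took the opposite sign. Without 1 library, the log phase value of CTR3 ranged from -1.75 to 0.13, of COQ9 from -2.37 to 1.61, of HMX1 from -0.67 to 0.25, of MSS51 from -0.50 to 0.22 and of GUF1 from -0.46 to 0.53. The positive limit of CTR3, HMX1 and MSS51 was reached without euploid log phase replicate 1, and that of COQ9 without euploid log phase replicate 2. COQ9 was 0.0072 with each position counted once, MSS51 0.13 with the second tables, and GUF1 -0.0745 without the highest codon. At day 4 the ranges were -1.49 to 0.11 for UCC1, -0.48 to 0.26 for DCS1, -0.37 to 0.0351 for HMG2, -0.18 to 0.0589 for PEX13 and -3.13 to 2.80 for INA1. VRP1 was 0.0063 with the second tables, and DCS1 was 0.0573 with each position counted once. PEX13 was 0.0339 over the whole coding sequence, 0.0629 with each position counted once and 0.0254 without the highest codon. Euploid day 4 replicate 1 had at least 50 reads in 16 distal genes, which limits the precision of ratios that use it.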
